A study of Mus musculus with 16 samples.

Results

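The Polycomb repressive complex genes described here are 10 genes for core subunits of the Polycomb machinery, namely *Ezh1*, *Ezh2*, *Suz12*, *Eed*, *Jarid2*, *Bmi1*, *Ring1*, *Rnf2*, *Cbx2* and *Cbx7*. They are listed by name for their function, by a rule that uses no measured value, and all 10 were found among the 23609 genes of the table. RNA-seq of whole primary mammary tumors compared littermates that differed at *Resf1*, the gene for retroelement silencing factor 1. The wildtype group held 5 tumors of MMTV-PyMT animals, and the gene trap group held 5 tumors of MMTV-PyMT animals that were also heterozygous for a *Resf1* gene trap (*Resf1* +/-). Both groups therefore carried the polyoma middle T antigen, an oncogene that the MMTV promoter drives in mammary epithelium, on a cross of the FVB strain with a gene trap strain of C57BL/6 background. The trap is an inherited lentiviral insertion in the first exon of *Resf1*, so stroma carries it too, and each animal also inherited 1 intact copy. Whether the tumor cells kept that copy is not given in the labels. For its separate *Resf1* knockout cross, the paper reports that tumors of many animals had lost the wildtype allele. The age of the animals is not given in the labels. The labels describe 16 tumors, and the values used came from the 10 columns whose names could be matched to a label.

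Polycomb proteins keep genes silent through chromatin and were first known as repressors of developmental regulators. Polycomb repressive complex 2 (PRC2) methylates a lysine of histone H3 through EZH1 or EZH2, and it needs SUZ12 and EED to be active, while JARID2 is an accessory subunit that helps to recruit and tune it. Polycomb repressive complex 1 (PRC1) ubiquitinates histone H2A through the RING proteins RING1 (RING1A) or RNF2 (RING1B). In its canonical form it holds a PCGF protein such as BMI1 and a CBX protein such as CBX2 or CBX7, whose chromodomain binds the mark laid down by PRC2. In mammary tissue EZH2 and BMI1 are best known for their part in progenitor cells and in the growth of tumors, and the *Cdkn2a* locus is the best known target of both complexes. *Ezh2* is commonly transcribed together with cell cycle genes, and *Ezh1* is more often found in cells that divide little.

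Sequence near a gene's start is shown for the members that hold a letter match for the E2F family, the factors that drive cell cycle genes. RefSeq promoter sequences of build GRCm38.p6, which run from 250 bases before to 50 bases after a gene's start, were available for 9 of the 10 members, and *Cbx2* was not matched. They were searched on both strands for the octamers TTTCCCGC, TTTCGCGC, TTTGCCGC and TTTGGCGC. Of the 9 members, 2 held one of these octamers, as did 5 of 21 proliferation genes with a promoter sequence and 2.26% of all 32851 promoters of the same length. Members and proliferation genes were counted per gene, with 10 promoters for the 9 members. The 2.26% counts single promoters, which belonged to 27025 gene symbols, so the units differ. The stretches around both matches are printed 5′ to 3′ on the strand of the gene, with the octamer in capitals. The *Ezh2* stretch is chr6:47595001-47595053 on the minus strand, with the octamer 3 bases after the start of the gene, and the *Suz12* stretch is chr11:79992861-79992920 on the plus strand, with the octamer beginning at position -219 relative to the start.
Ezh2: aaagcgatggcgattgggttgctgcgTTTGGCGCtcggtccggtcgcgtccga
Suz12: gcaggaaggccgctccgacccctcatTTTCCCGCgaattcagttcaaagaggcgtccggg
A match of letters is not a measured binding site, and a promoter without a match says only that these letters are absent from the window.

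The deposited values are estimated counts per gene, which the authors had brought to a common scale across tumors with median ratio normalization. They hold fractions and 0 zeros, so the sequencing depth of a tumor is unknown. The luminal epithelial marker *Epcam* lay between 19190.3 and 25278 in all 10 tumors and *Krt8* between 16809 and 24801, which fits the label of a mammary tumor. The summed level of the 10 luminal markers ranged from 118937 to 150980 in wildtype and from 117899 to 147791 in gene trap tumors. All 10 myoepithelial markers and all 5 measured adipocyte markers were lower on average in gene trap tumors, with median log2 fold changes of -0.34 and -0.34, and 2 and 0 of them had an unadjusted p under 0.05. The adipocyte median was -0.11 without gene trap tumor 5, -0.12 without wildtype tumor 3 and -0.56 without wildtype tumor 1. Of 10 markers each, 8 macrophage and 8 endothelial markers were lower and 8 fibroblast markers were higher on average, with 0 unadjusted p under 0.05. Without gene trap tumor 2, 6 endothelial markers were higher and 4 lower. The fibroblast direction also turned, with 2 markers higher and 8 lower without wildtype tumor 4, and likewise without gene trap tumor 1. The mean z score of the myoepithelial markers was 0.47 ± 0.45 in wildtype and -0.47 ± 0.51 in gene trap tumors (SD, n = 5, exact permutation p = 0.0238, adjusted over 8 list scores 0.190). The lists were chosen with earlier results of these data known, so this p is not that of a list fixed beforehand. The summed myoepithelial level was 9104 to 12709 in wildtype and 6705 to 9532 in gene trap tumors, and its part in the values of the members was not tested. These tumors are mixtures of cells, so fewer cells of a type and less RNA per cell cannot be told apart. Gene trap tumor 2 stood apart from the others. Its log2 values correlated with those of the other tumors at r = 0.958 to 0.965, against 0.979 to 0.988 among the other 9, and its 20 highest genes took 36.6% of the column total, against 21.2% to 29.0% elsewhere.

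The members differed in abundance by about an order of magnitude. On the scale of normalized value per kilobase of the longest GENCODE transcript, *Suz12* was the most abundant at 772 ± 67.8 (SD, n = 10 tumors), and *Cbx2* was the least abundant at 84.6 ± 13.6. The PRC2 core followed *Suz12*, with *Eed* at 547 ± 40.8 and *Ezh2* at 539.8 ± 47.2. *Eed* and *Ezh2* were not separated, since *Eed* was the higher of the pair in 6 of 10 tumors. *Bmi1* (440.1 ± 49.97) and *Ezh1* (435 ± 37.3) were likewise alike in level, with *Bmi1* higher in 5 of 10 tumors. The RING genes came next, at 339 ± 33.3 for *Rnf2* and 255 ± 70.7 for *Ring1*, with *Rnf2* above *Ring1* in 9 of 10 tumors. *Jarid2* lay at 239.8 ± 31.3, and *Ring1* exceeded it in only 4 of 10 tumors. *Cbx7* was at 129 ± 17.5 and exceeded *Cbx2* in all 10 tumors. Of the 9 neighbouring pairs in this order, *Suz12* over *Eed* and *Jarid2* over *Cbx7* were the only pairs whose ranges over the 10 tumors did not touch. The spread of levels rests on the choice of transcript, because the ratio of the highest to the lowest member was 9.13 with the longest transcript and 37.9 with the median transcript length of each gene. The order changed as well. Per kilobase of the median transcript length it was *Suz12* (5349), *Bmi1* (3036), *Jarid2* (2983), *Ezh1* (2235), *Ezh2* (1737), *Eed* (1684), *Rnf2* (1329), *Cbx7* (1098), *Ring1* (320) and *Cbx2* (141). *Suz12* was first and *Cbx2* last with both lengths, while *Jarid2* stood 8th with the longest transcript and 3rd here.

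For the comparison of genotypes, log2 values of the 21034 genes with a mean of at least 10 were fitted with limma, and all 10 members passed this filter. None of the 10 was called at an adjusted p under 0.05, and none had an unadjusted p under 0.05 (unadjusted p 0.250 to 0.965). Over all tested genes limma called 0 (0%) at the adjusted threshold, while 479 (2.28%) had an unadjusted p under 0.05, of which 278 were higher and 201 lower in gene trap tumors. The smallest adjusted p of any gene was 0.9997, which is also the adjusted p of each member. In no member were the groups separate, against 0.528% of tested genes whose groups did not overlap. Of the members, 6 were higher and 4 were lower on average in gene trap tumors, and their median log2 fold change was 0.03 against 0.00 for all tested genes. Without gene trap tumor 2 the split was 8 higher and 2 lower. *Resf1* itself, the trapped gene, had a log2 fold change of -0.22.

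**Figure D1:**
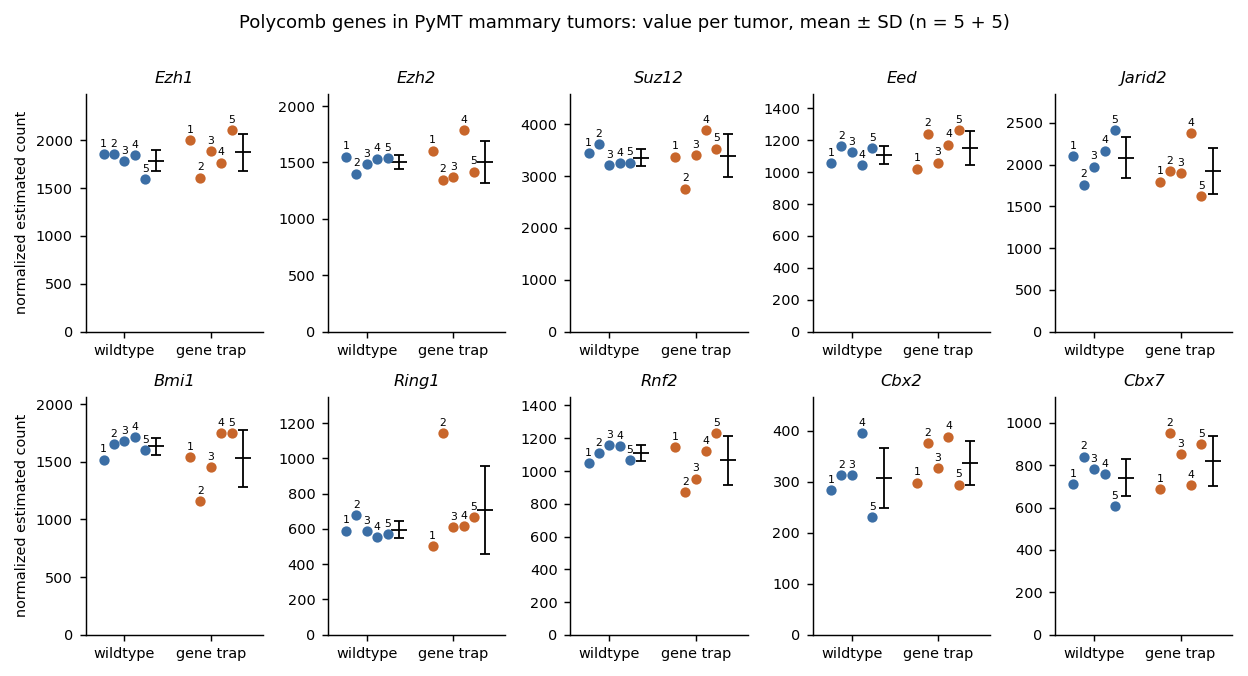
Normalized estimated count of each member in every tumor (vertical axes from 0, one panel per gene), with numbered points for the 5 wildtype (blue) and 5 gene trap (orange) tumors and bars for the mean ± SD beside them. The groups overlap in all 10 panels, and the *Ring1* value of gene trap tumor 2 (1144) is far above the other 9 (501 to 676).

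Among the catalytic subunits of PRC2, *Ezh2* (ENSMUSG00000029687, chromosome 6) was almost equal in both genotypes. Its normalized values were 1551, 1401, 1485, 1535 and 1541 in wildtype tumors 1 to 5, and 1604, 1348, 1372, 1789 and 1419 in gene trap tumors 1 to 5. The gene trap tumors lay on both sides of the wildtype range, with 2 above its highest value and 2 below its lowest. The wildtype mean was 1503 ± 62.2 and the gene trap mean 1506 ± 187 (SD, n = 5 each), and the log2 fold change was -0.00 (SE 0.09, limma adjusted p = 0.9997). Its 95% interval of -0.19 to 0.18 corresponds to 0.876 to 1.14 times the wildtype level. *Ezh1* (ENSMUSG00000006920, chromosome 11), the alternative catalytic subunit, was at 1856, 1858, 1779.9, 1844 and 1596 in wildtype and at 2000.2, 1609, 1888, 1766 and 2109 in gene trap tumors. Here 3 gene trap tumors exceeded the highest wildtype tumor and none was below the lowest. The log2 fold change of *Ezh1* was 0.07 (SE 0.08, limma adjusted p = 0.9997), with an interval of -0.12 to 0.25.

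The scaffold subunits of PRC2 were similar between genotypes too. *Suz12* (ENSMUSG00000017548, chromosome 11) measured 3451, 3611, 3209, 3250.3 and 3261 in wildtype tumors and 3379, 2760, 3409.5, 3893 and 3530.0 in gene trap tumors. Gene trap tumor 4 was the highest and gene trap tumor 2 the lowest of all 10, and the other 3 gene trap tumors sat within the wildtype range. Its log2 fold change was 0.01 (SE 0.09, limma adjusted p = 0.9997), with an interval of -0.18 to 0.20, and it was 0.08 without gene trap tumor 2. *Eed* (ENSMUSG00000030619, chromosome 7), which reads the methyl mark and stimulates the enzyme, was at 1055, 1165, 1124, 1044 and 1153 in wildtype and at 1022, 1242, 1059.6, 1172 and 1265 in gene trap tumors. Although 3 gene trap tumors topped every wildtype tumor, 1 lay below them all. The difference in log2 value was 0.05 (SE 0.08, limma adjusted p = 0.9997), with an interval of -0.12 to 0.23. *Eed* shares 408 bases with *Gm45120* on the same strand and 261 bases with *E230029C05Rik* on the opposite strand in GENCODE, and whether the counting used strand is not stated.

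*Jarid2* (ENSMUSG00000038518, chromosome 13) had the most negative log2 fold change of the 10 members. It measured 2098, 1759, 1976, 2166 and 2416 in wildtype tumors and 1796, 1919, 1896, 2378 and 1623 in gene trap tumors. Wildtype tumor 5 and gene trap tumor 4 were both high, no gene trap tumor exceeded the wildtype maximum, and only gene trap tumor 5 lay below the wildtype minimum. The means were 2083 ± 242 (SD, n = 5) and 1922 ± 280.3 (SD, n = 5), with a log2 fold change of -0.12 (SE 0.11, limma adjusted p = 0.9997) and an interval of -0.36 to 0.12.

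Of the RING ligases of PRC1, *Ring1* (ENSMUSG00000024325, chromosome 17) had the largest fold change of the members and the least stable one. Its values were 591, 676, 589, 552 and 570.1 in wildtype tumors and 501, 1144, 609, 618 and 669 in gene trap tumors. A single tumor, gene trap 2, held the highest value, and the remaining gene trap tumors ran from below the wildtype range to just under its top. The log2 fold change was 0.19 (SE 0.18, limma adjusted p = 0.9997, interval -0.20 to 0.58) with this tumor and 0.00 (SE 0.10) without it. *Rnf2* (ENSMUSG00000026484, chromosome 1), the more abundant ligase, measured 1050.2, 1111, 1159.9, 1152 and 1068 in wildtype and 1147, 869.5, 954, 1119 and 1232 in gene trap tumors. Gene trap tumors 2 and 3 were below all wildtype tumors and gene trap tumor 5 above all of them. Its log2 fold change of -0.07 (SE 0.10, limma adjusted p = 0.9997, interval -0.28 to 0.14) became 0.00 without gene trap tumor 2. *Rnf2* shares 158 bases with *Trmt1l* on the opposite strand and 3029 bases with the unconfirmed gene model *Gm36527* on its own strand.

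*Bmi1* (ENSMUSG00000026739, chromosome 2), the PCGF subunit best known from stem cell renewal, was at 1519, 1654, 1679.8, 1713 and 1605 in wildtype tumors and at 1539.8, 1158, 1452, 1747 and 1750.2 in gene trap tumors. The gene trap values reached past the wildtype range at both ends, with gene trap tumor 2 far below the rest. The log2 fold change was -0.11 (SE 0.11, limma adjusted p = 0.9997, interval -0.34 to 0.12), and it was -0.01 without that tumor.

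The CBX readers were both slightly higher on average in gene trap tumors, by less than the spread between tumors. *Cbx7* (ENSMUSG00000053411, chromosome 15), a chromodomain protein that is also known from self-renewing embryonic stem cells, measured 712, 839.8, 783, 758 and 608 in wildtype and 686, 951, 853, 705 and 898 in gene trap tumors. Gene trap tumors 2, 3 and 5 were above the wildtype maximum, and gene trap tumors 1 and 4 were within the wildtype range. The log2 fold change of *Cbx7* was 0.14 (SE 0.12, limma adjusted p = 0.9997, interval -0.11 to 0.40) and 0.08 without gene trap tumor 2. *Cbx7* shares 100 bases with *Apobec3* on the opposite strand. *Cbx2* (ENSMUSG00000025577, chromosome 11), a CBX protein that compacts chromatin, was at 284, 313, 313, 396 and 231 in wildtype and at 298, 376, 327, 388 and 294 in gene trap tumors. The wildtype tumors enclosed the gene trap tumors, since wildtype tumor 4 was the highest and wildtype tumor 5 the lowest of all. Its log2 fold change was 0.14 (SE 0.15, limma adjusted p = 0.9997, interval -0.17 to 0.46).

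Exact two-sided permutation tests over all arrangements of 5 and 5 tumors gave p between 0.286 and 0.968 for the 10 members, where the smallest p of this design is 0.00794. Taken over all members, the 95% limma intervals ran from -0.36 to 0.58 on the log2 scale, that is from 0.780 to 1.498 times the wildtype level, with the upper end set by *Ring1*. Leaving out 1 tumor in turn moved all these small log2 fold changes. *Cbx2* ran from 0.05 without wildtype tumor 5 to 0.24 without wildtype tumor 4, and *Cbx7* from 0.07 without wildtype tumor 5 to 0.20 without gene trap tumor 1. *Jarid2* ran from -0.20 without gene trap tumor 4 to -0.06 without gene trap tumor 5. *Ezh1* ran from 0.02 without gene trap tumor 5 to 0.12 without gene trap tumor 2, and *Eed* from 0.02 without gene trap tumor 5 to 0.09 without gene trap tumor 1. The replicates are separate tumors of littermates, and an interval of this width does not show that the genotypes are equal.

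The spread between tumors of a group was larger in gene trap tumors for 9 of the 10 members. The ratio of the SD of log2 values in gene trap tumors to that in wildtype tumors ranged from 0.656 for *Cbx2* to 4.00 for *Ring1*. Its median was 2.19 over the members and 1.16 over all tested genes. Of all tested genes, 59.5% had the larger SD in gene trap tumors. For *Ezh2* the SD was 0.06 in wildtype and 0.17 in gene trap tumors, for *Bmi1* it was 0.07 and 0.24, and for *Rnf2* it was 0.06 and 0.21. Without gene trap tumor 2 the count was again 9 of 10 members, against 45.8% of tested genes, and the median ratio was 1.48 for the members and 0.94 for all tested genes. *Ring1*, *Suz12* and *Bmi1* then had ratios of 1.58, 1.30 and 2.00 in place of 4.00, 2.51 and 3.62, while *Ezh2* kept a ratio of 2.87. The difference in spread was seen in these data and was not tested. The mean z score of 25 cell cycle genes also spread more, with an SD of 0.64 in wildtype and 1.101 in gene trap tumors. So did the lymphocyte and myoepithelial scores, while the luminal, fibroblast, macrophage, endothelial and adipocyte scores had the larger SD in wildtype tumors. The ratio was not compared with that of other Polycomb genes or of genes of like level. A larger spread is therefore not shown to be particular to the members. Across both groups 9 of 10 members had a within-group SD below the median of 0.25 of all tested genes. The range was 0.11 for *Eed* to 0.33 for *Ring1*. The tested genes reach down to a mean of 10, while group means of members ran from 307 for *Cbx2* to 3394 for *Suz12*. Genes of like level were not compared, so a low spread is not shown to be particular to the members.

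**Figure D2:**
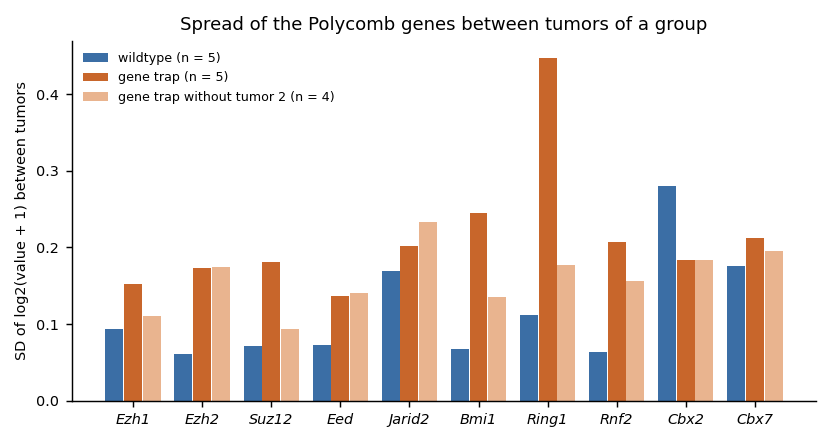
SD of log2(value + 1) between the tumors of a group for each member (bars from 0), for wildtype (blue, n = 5), gene trap (orange, n = 5) and gene trap without tumor 2 (light orange, n = 4). The gene trap bar is higher than the wildtype bar for 9 of 10 members, with *Cbx2* as the exception, and the *Ring1*, *Suz12* and *Bmi1* bars drop most without tumor 2.

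Gene trap tumor 2 was the highest or lowest of the 10 tumors for 6 of the 10 members, and for 44.2% of all tested genes. Gene trap tumor 5 was so for 5 members, against 15.7% of tested genes, and wildtype tumor 5 for 4, against 21.8%. Gene trap tumors 1 and 4 were so for 2 members each and wildtype tumor 4 for 1. Gene trap tumor 2 was highest for *Ring1* and *Cbx7* and lowest for *Ezh2*, *Suz12*, *Bmi1* and *Rnf2*. Members of the same complex thus deviated in opposite directions. Relative to the mean of the other 9 tumors, the log2 value of this tumor differed by 0.94 for *Ring1*, 0.33 for *Cbx7* and 0.26 for *Cbx2*, and by -0.49 for *Bmi1*, -0.35 for *Rnf2* and -0.32 for *Suz12*. The first trio has GC-rich transcripts and the second AT-rich ones, with 56.4% to 57.6% GC and 39.5% to 41.6% GC in the longest transcript. Over the 10 members the deviation of this tumor correlated with transcript GC content at r = 0.84, and over 20536 tested genes with a known transcript Spearman's rho was 0.20, where genes are not independent replicates. In the other tumors r over the members ran from -0.65 in wildtype tumor 5 to 0.66 in gene trap tumor 3. Their values of rho over all genes ran from -0.35 to 0.27, so such a relation with GC content was not particular to this tumor. Its part in the deviations was not tested.

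**Figure D3:**
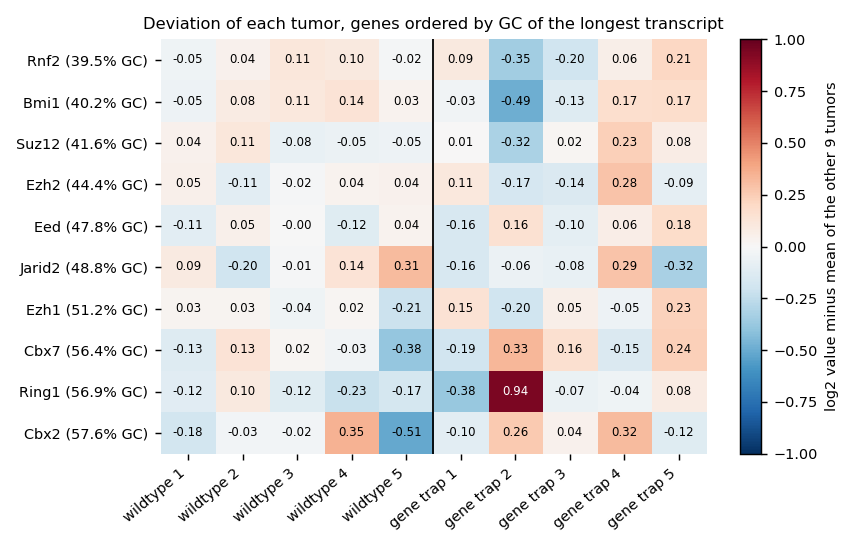
Log2 value of each member in each tumor minus the mean of the other 9 tumors (colour, from blue for lower to red for higher), with members in rows ordered by the GC content of the longest transcript and tumors in columns. Gene trap tumor 2 runs from -0.35 and -0.49 at the AT-rich top to 0.94 and 0.26 at the GC-rich bottom.

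Subunits that take the same place in a complex were compared as a ratio within each tumor, which does not depend on the scaling between tumors. These values were not divided by transcript length, so the sign of a ratio does not rank a pair by abundance. *Ezh2* minus *Ezh1* was negative on average, while per kilobase of the longest transcript *Ezh2* (539.8) lay above *Ezh1* (435). None of the 4 ratios differed between genotypes beyond the spread between tumors. The log2 difference *Ezh2* minus *Ezh1* averaged -0.25 ± 0.13 in wildtype and -0.32 ± 0.22 in gene trap tumors (SD, n = 5 each), a shift of -0.07 (exact permutation p = 0.579, 0.815 after Benjamini-Hochberg adjustment over the 4 ratios). *Rnf2* minus *Ring1* was 0.90 ± 0.13 in wildtype and 0.64 ± 0.61 in gene trap tumors (exact permutation p = 0.492, adjusted 0.815). That ratio was positive in 9 tumors, from 0.65 to 1.19, and -0.40 in gene trap tumor 2, the one tumor with more *Ring1* than *Rnf2* signal. Without that tumor the shift of -0.26 was -0.00. *Cbx2* minus *Cbx7* was -1.28 in both genotypes (SD 0.20 and 0.28, exact permutation p = 1), and *Bmi1* minus its paralog *Pcgf2* was 3.18 ± 0.26 and 3.05 ± 0.44 (exact permutation p = 0.611, adjusted 0.815).

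The other genes of the pathway were read from lists by role. Of 9 tested PRC2 accessory subunits and histone chaperones, 5 were higher and 4 lower in gene trap tumors and 0 were called by limma, and the median log2 fold change was 0.03. The smallest p among them belonged to *Phf1*, a Polycomb-like subunit that binds methylated histone H3, at 635 ± 90.8 in wildtype and 734 ± 104 in gene trap tumors (SD, n = 5; log2 fold change 0.21, limma unadjusted p = 0.106). *Epop*, an elongin-binding accessory subunit, had 0.32 (limma unadjusted p = 0.216, adjusted p = 0.9997), and *Lcorl* had -0.11 (limma unadjusted p = 0.351, adjusted p = 0.9997). *Ezhip* was not found in the table.

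Of 9 further canonical PRC1 subunits, 4 were higher and 5 lower, with 0 called and a median of -0.02. *Scml2*, a Polycomb protein with MBT domains, had the smallest p of all 46 other subunits and opponents, at 163 ± 25.5 in wildtype and 131 ± 20.3 in gene trap tumors (SD, n = 5; log2 fold change -0.31, limma unadjusted p = 0.0677). The polyhomeotic genes *Phc1* and *Phc3*, whose products polymerize and cluster PRC1, had log2 fold changes of -0.12 and 0.10. The direction of the canonical PRC1 list depended on single tumors. It had 1 higher and 8 lower genes without gene trap tumor 2 (median -0.09) and without wildtype tumor 5 (-0.08). Without wildtype tumor 4 (0.06) or wildtype tumor 2 (0.01) it had 6 higher and 3 lower, and without gene trap tumor 1 (0.04) 5 higher and 4 lower. *Pcgf2* was at 182 ± 33.8 and 184 ± 26.3, a log2 fold change of 0.03.

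Variant PRC1 uses other PCGF proteins and RYBP or YAF2 in place of CBX proteins. Of its 16 tested subunits 9 were higher and 7 lower, with 0 called and a median of 0.01. *Pcgf6*, which serves in the complex with E2F6 and MGA, had a log2 fold change of 0.13, *Rybp* had -0.09 and the corepressor gene *Bcor* had -0.08 (limma adjusted p = 0.9997 each). The 12 tested erasers and opponents include the demethylases that remove the PRC2 mark, the deubiquitinase BAP1 with its ASXL partners and the methyltransferases KMT2C and KMT2D. Here 7 were higher and 5 lower, again with 0 called and a median of 0.02. *Kdm6a*, a demethylase gene, had a log2 fold change of -0.09, *Kmt2d* had 0.15 and *Asxl1* had 0.05 (limma adjusted p = 0.9997 each). Across the 46 other subunits, erasers and opponents 25 were higher and 21 were lower, the median was 0.01, and 0 had an unadjusted p under 0.05, against 2.28% of all tested genes.

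**Figure D4:**
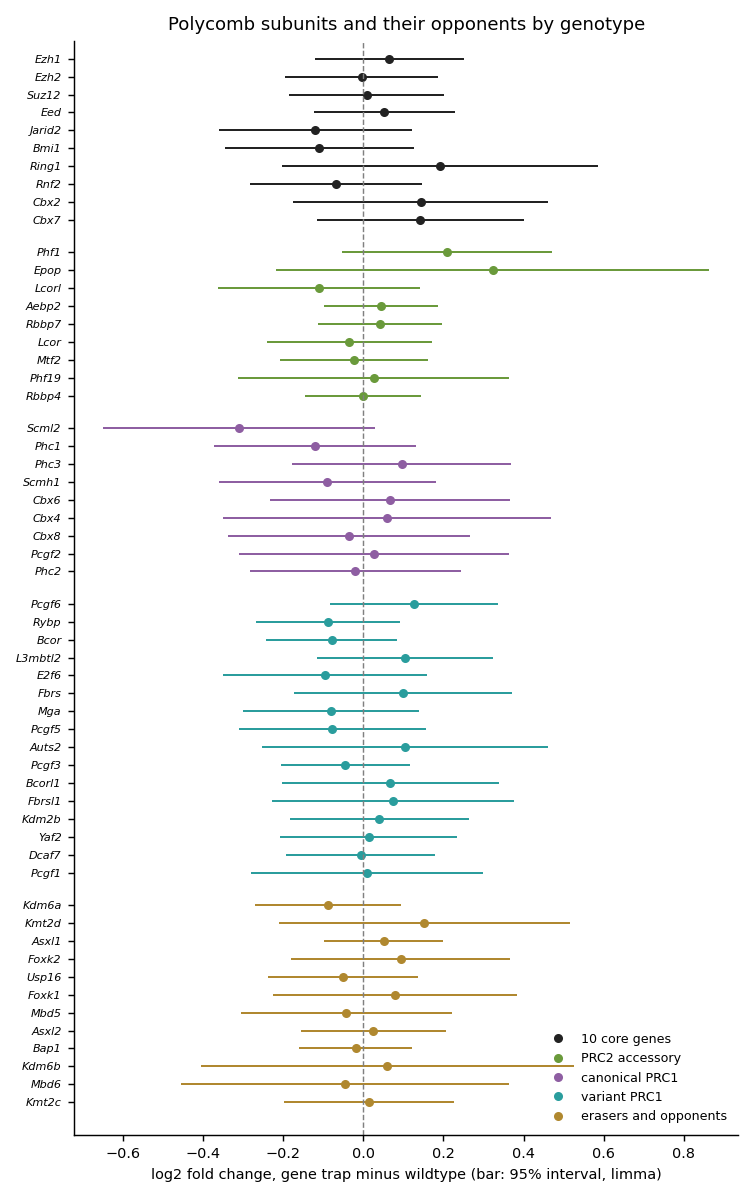
Log2 fold change of gene trap against wildtype tumors (horizontal axis, points) with 95% limma intervals (bars) for the 10 members and the 46 other tested Polycomb genes, coloured by role. Every interval includes 0, and the lowest end is that of *Scml2* at -0.65.

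Polycomb target genes gave little signal to compare. Of 40 classic targets, mostly homeobox and other developmental transcription factor genes, 13 were found in the table and 11 passed the filter on low values. In gene trap tumors 7 were higher and 4 lower, and 0 had an unadjusted p under 0.05. Their median log2 fold change was 0.12, and it was 0.02 without gene trap tumor 2. *Cdkn2b*, a cell cycle inhibitor gene, measured 209, 151, 179, 222 and 154 in wildtype and 146, 166, 136, 148 and 204 in gene trap tumors. Although gene trap tumors 1, 3 and 4 were below every wildtype tumor, gene trap tumor 5 was near the wildtype top, and the log2 fold change was -0.19 (SE 0.16, limma unadjusted p = 0.249). *Cdkn2a*, which encodes p16 and p19ARF, had values of 38.2 to 108 in wildtype and 32.02 to 85.8 in gene trap tumors, with a log2 fold change of -0.28 (SE 0.32, limma unadjusted p = 0.402). *Tbx15*, a T-box gene that was well expressed in both groups, had means of 2083 ± 420 and 2237 ± 159 (SD, n = 5) and a log2 fold change of 0.12.

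A proliferation score was computed for each tumor as the mean z score of 25 cell cycle genes, none of them a member. It did not differ between genotypes beyond the spread between tumors (0.06 ± 0.64 in wildtype and -0.06 ± 1.101 in gene trap tumors, SD, n = 5, exact permutation p = 0.841). The direction depended on single tumors. Of the 25 genes 18 were lower in gene trap tumors, but all 25 were lower without gene trap tumor 4, and 15, 17 and 16 were higher without gene trap tumor 3, gene trap tumor 5 or wildtype tumor 5. Gene trap tumor 4 had the highest score at 1.77 and wildtype tumor 5 the next at 1.00, while gene trap tumors 5 and 3 had the lowest at -0.99 and -0.84.

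Along this score, *Jarid2* and *Ezh2* were higher and *Cbx7* and *Ezh1* were lower in the more proliferative of the 10 tumors. *Jarid2* gave Pearson's r = 0.80 (permutation p = 0.00529) and Spearman's rho = 0.73 (permutation p = 0.0201). *Ezh2* gave r = 0.79 (permutation p = 0.00665) and rho = 0.70 (permutation p = 0.0306). The reverse slope of *Cbx7* had r = -0.67 (permutation p = 0.0319) and rho = -0.75 (permutation p = 0.0169), and that of *Ezh1* had r = -0.55 (permutation p = 0.101) and rho = -0.67 (permutation p = 0.0389). None of these relations passed the adjustment over all tested genes. In limma's fit of all genes on the score the adjusted p was 0.465 for *Jarid2*, 0.670 for *Ezh2*, 0.766 for *Cbx7* and 0.969 for *Ezh1*, and 0 genes (0%) were called. An unadjusted p under 0.05 was found for 3 of 10 members and for 5.8% of all tested genes, the 25 genes of the score among them. The remaining 6 members had r between -0.18 and 0.24.

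The relations with proliferation leaned on the tumors at the end of the scale. Without gene trap tumor 4 and wildtype tumor 5, the tumors farthest from the median score, r was 0.49 for *Jarid2*, 0.53 for *Ezh2*, -0.53 for *Cbx7* and -0.44 for *Ezh1*, with exact permutation p from 0.178 to 0.267 over the remaining 8 tumors, so the relations rest in part on this pair. Taken as deviations from the genotype means, r was 0.82 for *Jarid2*, 0.79 for *Ezh2*, -0.70 for *Cbx7* and -0.55 for *Ezh1*. Leaving out any 1 tumor gave r of 0.73 to 0.87 for *Jarid2* and 0.54 to 0.84 for *Ezh2*, with the lowest value of *Ezh2* without gene trap tumor 4. With columns scaled to the same total, r of *Ezh1* was 0.18 in place of -0.55.

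**Figure D5:**
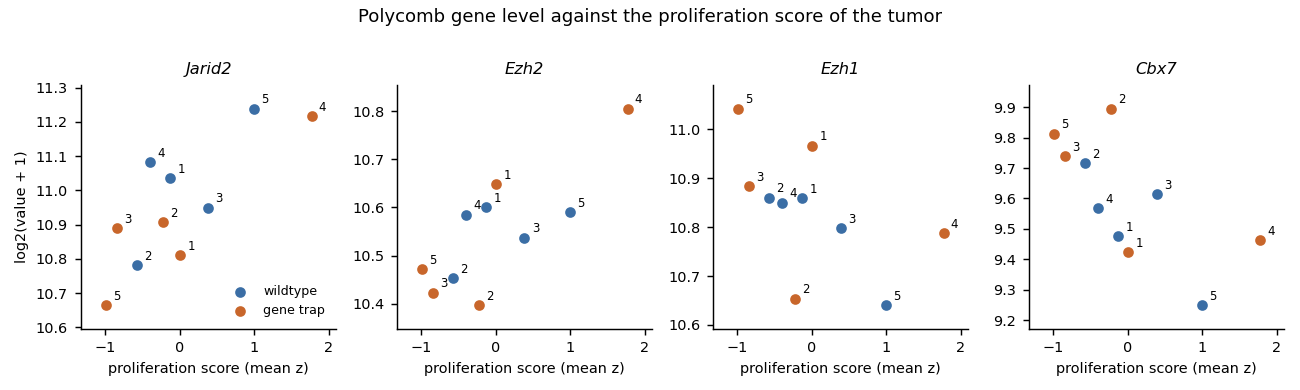
Log2(value + 1) of *Jarid2*, *Ezh2*, *Ezh1* and *Cbx7* (vertical axes, which do not start at 0) against the proliferation score of the tumor (horizontal axes), with numbered points for wildtype (blue) and gene trap (orange) tumors. *Jarid2* and *Ezh2* climb with the score (r = 0.80 and 0.79) and *Ezh1* and *Cbx7* descend (r = -0.55 and -0.67), with gene trap tumor 4 alone at the right.

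The members were also set against the measured level of *Resf1*, which ranged from 3066 in gene trap tumor 2 to 4487 in wildtype tumor 4. The genotypes overlapped, with 3517 to 4487 in wildtype and 3066 to 4029 in gene trap tumors. Relations with this level therefore hold variation within a genotype too, and its low end was the tumor that stood apart over all genes. *Eed* tended to be higher where *Resf1* was lower (r = -0.70, permutation p = 0.0280, and rho = -0.72, permutation p = 0.0238), as did *Ring1* (r = -0.62, permutation p = 0.0372, and rho = -0.49, permutation p = 0.154). The limma p adjusted over all tested genes was 0.536 for *Eed* and 0.518 for *Ring1*, and 0 genes (0%) were called, with an unadjusted p under 0.05 for 1 of 10 members and for 9.55% of all tested genes. Without gene trap tumor 2 and wildtype tumor 4, r was -0.51 for *Eed* (exact permutation p = 0.192) and -0.10 for *Ring1* (exact permutation p = 0.811), so the relation of *Ring1* rested on those tumors. Gene trap tumor 2 alone decided it, since r of *Ring1* was -0.24 without that tumor. When columns were scaled to the same total, *Ring1* passed the threshold (r = -0.86, limma adjusted p = 0.0320), as did 8.47% of all tested genes, and r of *Eed* was 0.02. The other 8 members had r between -0.27 and 0.44. As deviations from the genotype means, r was -0.72 for *Eed*, -0.57 for *Ring1* and 0.74 for *Ezh1* (limma unadjusted p = 0.0728, 0.0572 and 0.0376), where *Ezh1* had r = 0.36 over the tumors as they are. In that form 0 genes were called and 6.33% of all tested genes had an unadjusted p under 0.05, among them 1 member. Over both measures 20 relations of members were computed.

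The genes whose log2 values followed a member most closely over the 10 tumors are given as a description, out of all tested genes with a symbol. For *Ezh2* these were *Ganab* (r = 0.96), a glucosidase subunit gene, and the mitotic genes *Gpsm2* (0.96) and *Plk4* (0.93), which encode a spindle orientation protein and the kinase of centriole duplication. *Cbx7* was followed by *Zbtb4* (r = 0.95), a zinc finger repressor gene, *Ppp1r9b* (0.94) and *AC114539.1* (0.94). The closest gene was *Rnase1* for *Ezh1* (0.95), *Chrac1* for *Eed* (0.96), *AC117239.2* for *Jarid2* (0.93), *Ptk7* for *Cbx2* (0.93) and *Gm9347* for *Suz12* (0.95). For *Bmi1*, *Ring1* and *Rnf2* it was *Gm10254* (0.99), *Mrpl22* (0.99) and *Brox* (0.97), and without gene trap tumor 2 these values were 0.95, 0.92 and 0.94, while *Gm9347* with *Suz12* had 0.86. All these values share the same 10 libraries and normalization, and the top of 21034 genes is high by selection.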

How the data were processed

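Total RNA of whole tumors was isolated with Trizol and made into TruSeq Stranded Total RNA libraries. The authors deposited estimated counts per gene, a signal already normalized by the median ratio method. The submitters' processing notes name Partek, STAR 2.7.8a, DESeq2 and mm39, while the annotation, the counter and its strand setting are not given in the sources used here. Of 16 value columns, 10 were matched to a label, and 6 named by an animal number were not used. Without depth, no counting interval is given.

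Values were analysed as log2(value + 1), and fold changes on this scale understate those of low genes. The limma package (version 3.58.1) in R 4.3.3 was applied to genes with a mean of at least 10, with a variance trend, genotype as the only factor, Benjamini-Hochberg adjustment over 21034 genes and a threshold of 0.05. Differences in a single value were tested by exact two-sided permutation, and relations over tumors with 100000 permutations. The plan had adjusted those permutation p-values over all genes, and limma's fit of every gene on the score or on *Resf1* was used in its place. Names, lengths and GC content came from GENCODE mouse release 21 on an older build than the files, so no coordinates of the values are given. The rule for the members uses no values, but the members and lists were chosen with earlier results of these data known. Genes named were the members, *Resf1*, *Pcgf2*, *Cdkn2a*, *Cdkn2b*, the 3 genes of smallest p in each list, the most alike genes, *Epcam* and *Krt8*, and overlapping genes were named for their overlap. The alternatives were fits without each tumor, a block for equal replicate numbers, changed pseudocounts, filters, scalings and variance models, array weights and exact tests. The fits were tested on simulated data. Analyses used Python 3.11.15, scipy 1.17.1 and matplotlib 3.10.9.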

Additional observations from a re-analysis of the deposited data

Results flagged for a closer look

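In 30 groups of 5 tumors (the 10 members, the 4 ratios and the proliferation score in both genotypes), 2 values lay far from the other 4 tumors of their group, where chance gives about 1.5 such groups. The *Ring1* value of gene trap tumor 2 was 1144, where the remaining 4 gene trap tumors spanned 501 to 669. The log2 difference *Cbx2* minus *Cbx7* was -0.94 in wildtype tumor 4, against -1.42 to -1.32 in the other wildtype tumors, and a value of this size was also found in gene trap tumor 4 (-0.86).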

How the results depend on the processing

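By genotype, the count of 0 called genes was the same with each tumor left out and under the other settings run. These settings were 10 for the members and 9 each for all genes and the other Polycomb genes. No member then had an unadjusted p under 0.05. Over all genes that unadjusted count was 305 with columns scaled to the same total and 307 without wildtype replicate 4, in place of 479, and 1 other Polycomb gene passed it with the replicate block and in 4 of 10 fits that left out 1 tumor. Equal replicate numbers did not mark pairs (mean correlation of deviations -0.01, 2 of 5 pairs over 0.1, 1 of 5 best with its own number), and the replicate block gave 426 such genes and changed no call. The count of 0 called genes in the fit on the proliferation score was less stable. It was 9 (0.043%) without gene trap replicate 2 and 96 (0.456%) with columns scaled to the same total, with 0 members among them. Median transcript length moved the ratio of highest to lowest member level to 37.9 from 9.13. Log2 fold changes near 0 turned in sign, to 0.0133 for *Ezh2* with array weights, to -0.0186 for *Suz12* with the same column total (a scaling that moved every gene alike and the median of all genes to -0.02) and to -0.00129 for *Cbx2* minus *Cbx7* with a pseudocount of 10. With the same column total, r with the proliferation score was 0.179 for *Ezh1*, and r with *Resf1* was 0.0155 for *Eed*, 0.381 for *Jarid2*, 0.0118 for *Cbx2* and -0.856 for *Ring1*, which made 1 member called. Quantile normalization gave r = -0.0369 for *Eed* with proliferation, and deviations from the genotype means gave *Cbx2* 0.00563 with proliferation and 0.230 with *Resf1*. The cause was not tested.

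Leaving out 1 tumor in turn gave log2 fold changes of -0.0679 to 0.0341 for *Ezh2*, -0.0430 to 0.0812 for *Suz12* and -0.124 to 0.00152 for *Rnf2*, and shifts of -0.103 to 0.0869 for *Cbx2* minus *Cbx7* and -0.239 to 0.0355 for *Bmi1* minus *Pcgf2*. In the same fits r with proliferation ran from -0.333 to 0.353 for *Suz12*, -0.136 to 0.355 for *Eed*, -0.0237 to 0.390 for *Bmi1*, -0.0869 to 0.322 for *Rnf2* and -0.510 to 0.395 for *Cbx2*. With *Resf1* it ran from -0.204 to 0.511 for *Ezh2*, -0.323 to 0.590 for *Suz12*, -0.273 to 0.109 for *Jarid2*, -0.177 to 0.581 for *Bmi1*, -0.0155 to 0.652 for *Rnf2*, -0.342 to 0.222 for *Cbx2* and -0.506 to 0.0665 for *Cbx7*. The ends came without gene trap replicate 2 or 4 in most of these. With 5 tumors a group and depth unknown, differences within the intervals given above could not be resolved.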
